A study of Mus musculus with 8 samples.

Results

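DNA methylation is written and removed by a small set of enzymes, and their genes were the subject here: Tet1, Tet2 and Tet3, Dnmt1, Dnmt3a, Dnmt3b and Dnmt3l, and Uhrf1. For each of these 8 genes, of 21938 protein-coding genes in the GENCODE mouse release 21 annotation, every ATAC-seq peak was collected that overlapped the gene body or the 50 kb on either side of it in the mm10 (GRCm38) genome. ATAC-seq marks accessible chromatin through a transposase that inserts sequencing adapters into open DNA, and a peak is an interval with more insertions than its surroundings.

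DNMT3A and DNMT3B place new methyl groups on cytosine, DNMT3L is a partner of both that has no catalytic activity of its own, and DNMT1 copies methylation to the daughter strand after replication, guided there by UHRF1. The TET proteins are dioxygenases that use alpha-ketoglutarate and iron to oxidise 5-methylcytosine to 5-hydroxymethylcytosine and beyond, which leads to demethylation. Conversion of fibroblasts to pluripotent cells involves loss of methylation at pluripotency genes, and vitamin C, which was in the reprogramming medium here, is known to raise TET activity.

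The study profiled 8 libraries in 4 groups of 2. The groups were mouse embryonic fibroblasts (MEFs) with no vector, MEFs on day 5 and on day 10 after infection with retroviruses for OCT4, SOX2, KLF4 and c-MYC (OSKM) together with a FLAG control, and embryonic stem cells (ESCs) with no vector. All libraries were labelled Wildtype for the gene knocked out elsewhere in the study. The labels gave the strain C57BL/6J-OG2, which carries an Oct4-GFP reporter, to all libraries except ESC replicate 1, labelled C57Bl6J. The infected cells were kept in ESC medium with serum, LIF and vitamin C, while MEFs were kept in serum medium, so that infection, medium and time cannot be told apart. For the ESCs the labels name feeder cells (fibroblasts) and the methods gelatin and 2i/L medium. At both OSKM days the culture holds converting and non-converting cells together, and fewer cells with a site and a weaker site in every cell cannot be told apart.

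The authors deposited 1 peak list per group, of 56514 peaks in MEFs, 36219 on day 5, 35226 on day 10 and 48486 in ESCs, so no spread between replicates could be computed and every comparison below is a description without a test. The number of reads behind the lists is unknown, and a gene can lack a peak in a shorter list for that reason. Each peak carries a fold enrichment (its signal as a ratio to the background), the -log10 of its q-value, and a score that follows the q-value, by which peaks were ranked within their list. The peaks look like the parts of replicate 1 peaks that replicate 2 shared, which no source states, so these values would then belong to replicate 1, and they were not compared between lists as amounts. Cell types were checked by peaks on the start sites of marker genes. Of 10 fibroblast markers, 10 had such a peak in MEFs, 6 on day 5, 5 on day 10 and 3 in ESCs (Twist1, Col1a2 and Snai2). Of 10 ESC markers, 4 had one in MEFs (Esrrb, Tdgf1, Tfcp2l1 and Nr5a2), 1 on day 5 (Tfcp2l1) and 2 on day 10 (Tdgf1 and Tfcp2l1). In ESCs 7 had one, and Dppa5a, Tdgf1 and Lin28a had none. Nanog, Zfp42, Dppa4 and Fgf4 had one in ESCs and in no other list. Of 6 endothelial, blood and epithelial markers, 1 had one in MEFs (Epcam), 1 on day 5 (Cdh1), 1 on day 10 (Epcam) and 2 in ESCs (Cd68 and Cdh1).

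Sequences before start sites that differed between the lists are given here beside start sites covered in all of them, from GRCm38 on the strand named. The Tet1 and the pair of Dnmt3a promoter sequences are the 250 bases before start sites that a peak covered in ESCs alone (Tet1) or in MEFs alone (Dnmt3a), the Tet2 and Uhrf1 promoter sequences are those before start sites covered in all 4 lists, and the Tet2 intron sequence is the centre of a peak that was in every list but that of MEFs, chosen after its values were seen. Promoters are numbered along the gene, a promoter being a run of start sites no more than 500 bp apart. Capitals mark matches, on either strand, to the SOX motif (CCATTGT or CCTTTGT), the KLF motif (CCACACCC, CCACGCCC, CCCCACCC or CCCCGCCC, which includes the GC box of SP factors), the E2F motif (TTTCCCGC, TTTCGCGC, TTTGCCGC or TTTGGCGC) or the E-box (CACGTG). The octamer (ATGCAAAT), the AP-1 motif (TGACTCA or TGAGTCA) and the ESRRB motif (TCAAGGTCA) were also searched and had no match in these 6 sequences.
Tet1 promoter 3, chr10:62892987-62893236, minus strand: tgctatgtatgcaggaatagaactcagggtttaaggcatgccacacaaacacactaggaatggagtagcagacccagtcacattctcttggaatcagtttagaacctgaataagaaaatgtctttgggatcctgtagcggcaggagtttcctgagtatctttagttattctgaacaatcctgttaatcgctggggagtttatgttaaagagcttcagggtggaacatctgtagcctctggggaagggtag
Dnmt3a promoter 2, chr12:3806780-3807029, plus strand: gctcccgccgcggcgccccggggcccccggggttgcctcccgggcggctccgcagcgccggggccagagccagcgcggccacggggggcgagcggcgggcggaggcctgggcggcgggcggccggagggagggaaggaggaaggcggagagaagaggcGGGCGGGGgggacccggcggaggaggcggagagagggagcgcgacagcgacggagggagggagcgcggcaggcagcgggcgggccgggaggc
Dnmt3a promoter 7, chr12:3891478-3891727, plus strand: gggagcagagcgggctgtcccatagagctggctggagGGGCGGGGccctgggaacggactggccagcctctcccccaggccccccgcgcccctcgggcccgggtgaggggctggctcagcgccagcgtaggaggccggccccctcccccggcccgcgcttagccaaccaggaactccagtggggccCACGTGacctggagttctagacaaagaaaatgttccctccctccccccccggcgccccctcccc
Tet2 promoter 2, chr3:133544391-133544640, minus strand: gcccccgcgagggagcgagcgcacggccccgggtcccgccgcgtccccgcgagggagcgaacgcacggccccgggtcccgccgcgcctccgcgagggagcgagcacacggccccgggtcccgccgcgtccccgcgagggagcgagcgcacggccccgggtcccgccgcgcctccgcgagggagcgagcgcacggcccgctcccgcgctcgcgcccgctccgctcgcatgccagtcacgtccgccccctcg
Uhrf1 promoter 2, chr17:56304063-56304312, plus strand: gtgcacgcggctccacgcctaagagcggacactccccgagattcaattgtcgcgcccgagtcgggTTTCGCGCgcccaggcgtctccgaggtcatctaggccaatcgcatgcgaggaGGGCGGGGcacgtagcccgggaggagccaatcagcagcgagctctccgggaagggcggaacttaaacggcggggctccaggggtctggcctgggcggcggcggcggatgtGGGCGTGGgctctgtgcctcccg
Tet2 intron, chr3:133524725-133525024, plus strand: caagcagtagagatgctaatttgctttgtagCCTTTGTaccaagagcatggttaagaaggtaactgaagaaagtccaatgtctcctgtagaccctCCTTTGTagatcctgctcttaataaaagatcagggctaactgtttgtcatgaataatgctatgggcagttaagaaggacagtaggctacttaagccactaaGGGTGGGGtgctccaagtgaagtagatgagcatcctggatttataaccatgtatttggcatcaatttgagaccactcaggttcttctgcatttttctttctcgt

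The sequence before Tet1 promoter 3 had 44% G and C and 2 CpG dinucleotides, and held none of the motifs. Those before Dnmt3a promoter 2 and Tet2 promoter 2 had the same G and C share, 83.6%, with 37 and 51 CpG, and held 1 KLF match (Dnmt3a) and none of the motifs (Tet2). Uhrf1 promoter 2 had 69.6% and 30 CpG, with 1 E2F and 2 KLF matches, and Dnmt3a promoter 7 had 73.6% and 16 CpG, with 1 KLF match and 1 E-box. Sequences before Dnmt3a promoter 1 (53.6%, 2 CpG) and Tet2 promoter 1 (42.4%, 9 CpG), also covered in MEFs alone, are not printed. The Tet2 intron sequence had 41.7% G and C and 1 CpG, with 2 SOX matches and 1 KLF match. Over the 300 bases around each of 52546 promoters of protein-coding genes (250 before and 50 from the start), 23.1% held a KLF, 9.12% a SOX, 5.94% an E-box, 5% an AP-1, 1.66% an E2F, 1.63% an octamer and 0.567% an ESRRB match. Of promoters covered in all 4 lists, 48.7% held a KLF and 4.61% an E2F match. Of those covered in MEFs and not in ESCs, 36.2% held a KLF match and 8.54% an E-box. Over 300 bases at the centre of the 101701 regions into which the peaks of all lists merged, 15.8% held a KLF and 14.3% a SOX match. Of the regions in ESCs and not in MEFs, 14.7% held a KLF and 20.2% a SOX match. A match describes the letters and is not a site.

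At the 8 loci the lists held 61 peaks in MEFs, 46 on day 5, 54 on day 10 and 66 in ESCs. These were 0.108% of the MEF list (exact 95% interval 0.0826% to 0.139%), 0.127% of the day 5 list (0.093% to 0.169%), 0.153% of the day 10 list (0.115% to 0.2%) and 0.136% of the ESC list (0.105% to 0.173%). The intervals cover counting error only and treat peaks as independent draws, so their overlap is no test between groups. The peaks covered 62.5 kb in MEFs, 31.5 kb on day 5, 48.2 kb on day 10 and 51.1 kb in ESCs. The median of the 8 genes was 8, 6, 7 and 8.5 peaks, beside 5, 3, 3 and 4 over all protein-coding genes. The 8 genes were longer than most, with a median body of 67.1 kb against 17.4 kb, and had more promoters, 4 against 2, so their windows were larger too.

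**Figure D1:**
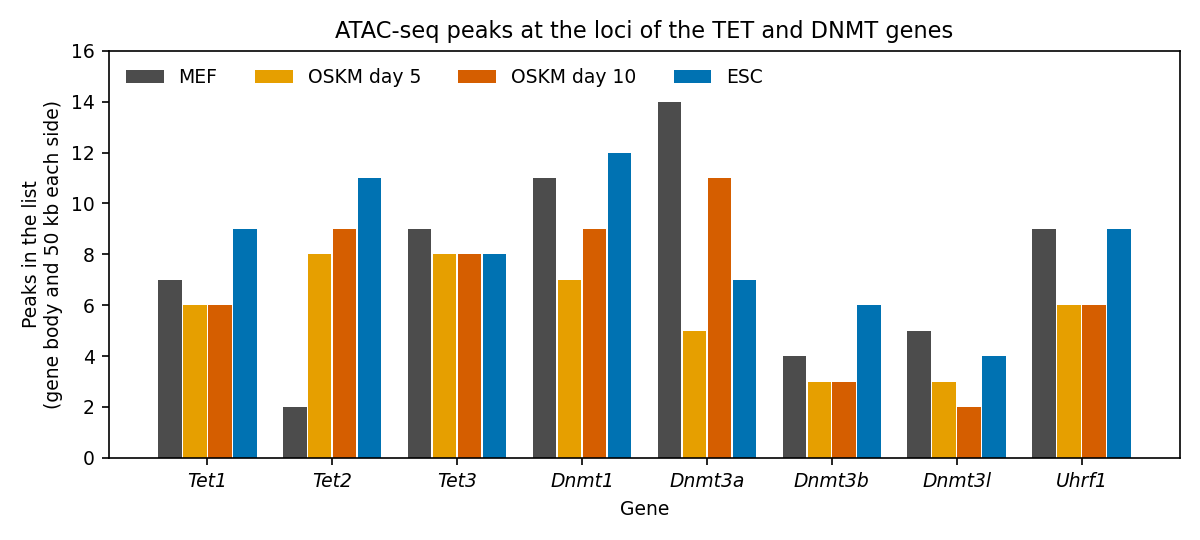
Number of peaks (vertical axis) within the body and 50 kb each side of each gene (horizontal axis), one bar per deposited list. The MEF bar is the lowest of the 4 at Tet2 (2 peaks) and the highest at Dnmt3a (14 peaks). Each bar is 1 list, so there are no error bars.

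Tet2 had 2 peaks in MEFs, 8 on day 5, 9 on day 10 and 11 in ESCs. It was the sole member with more peaks on day 5 than in MEFs, as 11.7% of all genes had. A rise of 6 or more, as at Tet2, was found at 0.173% of genes (38 genes), a limit taken from the Tet2 value itself. The order of ESCs against the OSKM days depended on the window, since the Tet2 counts were 1, 6, 7 and 3 in the gene body alone and 1, 7, 8 and 6 with a flank of 10 kb. MEFs had the fewest peaks in each of these windows. With each list limited to its 35226 highest-scoring peaks the Tet2 counts were 2, 8, 9 and 8, and among peaks with a -log10 q of at least 2 they were 2, 8, 7 and 9. Dnmt3a ran the other way, with 14, 5, 11 and 7 peaks in the same order. Its MEF count was lower with equal list sizes (7, 5, 11 and 5), where the day 10 list had the most, and in the gene body alone MEFs and day 10 had the same count (8, 2, 8 and 4). Among peaks with a -log10 q of at least 2 the Dnmt3a counts were 13, 5, 9 and 7.

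More peaks in ESCs than in MEFs were found at 4 members (35.6% of all genes). They were Tet1, Tet2, Dnmt1 and Dnmt3b, with 9 against 7, 11 against 2, 12 against 11 and 6 against 4. Fewer were found at 3 members (42.2% of all genes), namely Tet3 with 8 against 9, Dnmt3a with 7 against 14 and Dnmt3l with 4 against 5. Uhrf1 had 9 in both. Apart from Tet2 and Dnmt3a these differences were of 1 or 2 peaks. The differences of Tet1, Dnmt1 and Dnmt3l changed sign under at least 1 other window or peak filter, and the sum over the 8 genes went from 5 more in ESCs to 5 fewer among peaks with a -log10 q of at least 2. From day 5 to day 10 the count rose at 3 members, Tet2, Dnmt1 and Dnmt3a (33% of all genes), and the other day 10 counts were 6 at Tet1, 8 at Tet3, 3 at Dnmt3b, 2 at Dnmt3l and 6 at Uhrf1.

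A peak covered a start site of 7 of the 8 genes in MEFs (60% of all protein-coding genes), of 6 on day 5 (52.1%), of 6 on day 10 (56%) and of 6 in ESCs (55.8%). Tet1, Tet2, Tet3, Dnmt1, Dnmt3b and Uhrf1 had one in every list, Dnmt3a in MEFs alone and Dnmt3l in none. Counted by promoter, 13 of the 43 promoters of these genes lay under a peak in MEFs (29.4% of all promoters), 9 on day 5 (24.1%), 9 on day 10 (26.5%) and 7 in ESCs (26.2%). In all lists 6 were covered, in some lists 8, and 29 in none. A promoter covered in ESCs and not in MEFs was found at 1 member, Tet1 (6.23% of all genes), and one covered in MEFs and not in ESCs at 4 members, Tet1, Tet2, Tet3 and Dnmt3a (12.8%). At Tet1, Tet2 and Tet3 the ESC list had a peak close beside the uncovered start site, as the distances below show. At Dnmt3a promoter 2 the nearest ESC peak was 874 bp away. When a peak within 1 kb counted, 7 of the 8 genes in MEFs, 7 on day 5, 7 on day 10 and 8 in ESCs had one at a start site. The share of all protein-coding genes was not computed for this rule, so these counts have no background beside them.

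Peaks of the 4 lists no more than 400 bp apart were merged into 98 regions at these loci. Distances of regions are given from their midpoint to the most upstream start site of the gene. A peak in MEFs and in ESCs was held by 38 of them (38.8%, against 19.1% of all 101701 regions), one in MEFs and not in ESCs by 23 (23.5% against 36.4%), one in ESCs and not in MEFs by 28 (28.6% against 28.4%) and one on day 5 or day 10 alone by 9 (9.18% against 16.1%). Of 11 regions on a start site of the 8 genes 9 were in all 4 lists, as were 18 of 20 on start sites of other genes, while 1 of 26 regions elsewhere inside the genes and 3 of 41 outside were. A region on a start site is in a list when that list has a peak anywhere in it, on the start site or not. Together, 27 of 31 regions on a start site were in all lists (87.1%, against 66.4% of the 16607 such regions of the series) and 4 of 67 elsewhere (5.97%, against 3.57% of 85094). Of the 23 regions in MEFs and not in ESCs, 4 had a peak on day 5 (17.4%, against 14.2% of all such regions) and 7 on day 10 (30.4% against 14.8%). Dnmt3a alone held 2 of these 4 and 4 of these 7. Of the 28 in ESCs and not in MEFs, 6 had one on day 5 (21.4% against 10.7%) and 5 on day 10 (17.9% against 12.6%). Tet2 alone held 4 of these 6 and 4 of these 5, so the pooled shares rest largely on that gene.

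**Figure D2:**
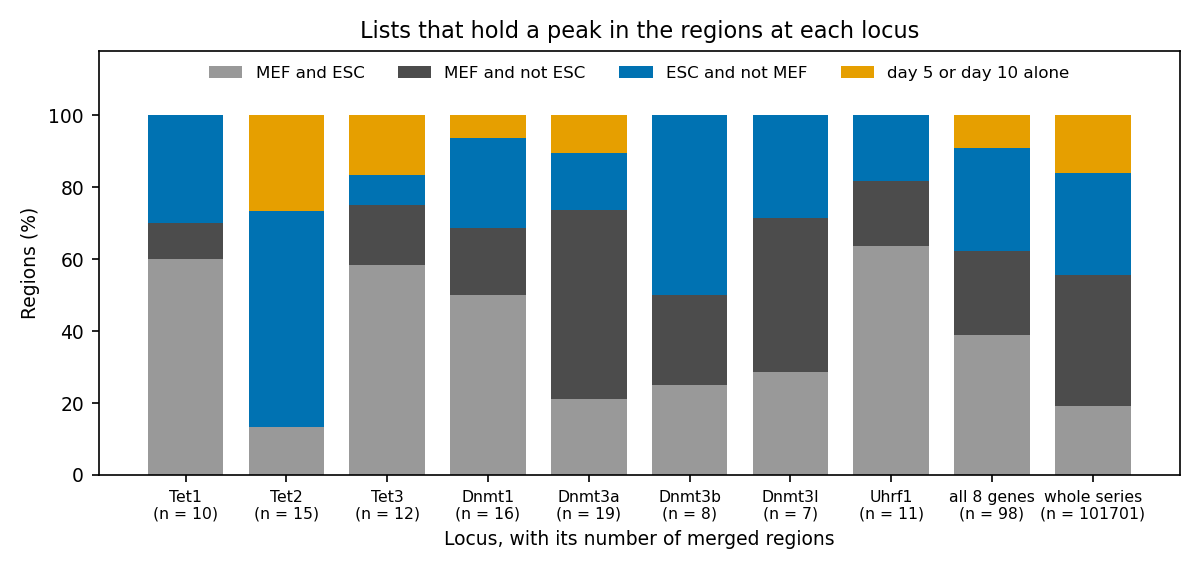
Share of merged regions (vertical axis, %) by the lists that hold a peak in them, for each locus, for the 8 genes together and for the whole series (horizontal axis, with the number of regions). Tet2 has no region in MEFs and not in ESCs and 60% in ESCs and not in MEFs, and Dnmt3a has 52.6% in MEFs and not in ESCs.

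Tet1 (ENSMUSG00000047146.17, chr10:62804570-62908996, minus strand) encodes a TET protein with a CXXC domain that binds CpG-rich DNA. It had 7 annotated promoters in 104 kb, and its window held 7 peaks in MEFs, 6 on day 5, 6 on day 10 and 9 in ESCs. Promoter 3, the start site at 62892986 whose upstream sequence is given above, lay under an ESC peak at chr10:62892665-62893363. That peak had a fold enrichment of 3.04 over background and stood in the upper 28.3% of its list by score. The nearest peak to this start site was 5517 bp away in MEFs, 5456 bp on day 5 and 5530 bp on day 10. The start site stayed covered in ESCs alone with the stricter q-value, with equal list sizes and when a peak within 1 kb counted.

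The remaining covered Tet1 promoters showed the reverse pattern by narrow margins. Promoter 4, with start sites from 62887324 to 62887512, lay under peaks in MEFs (fold enrichment 4.51, upper 7.33% of the list), on day 5 (3.95, upper 39.4%) and on day 10 (3.85, upper 29%). The ESC peak there ended 467 bp short of the nearest of these start sites, with a fold enrichment of 2.54 (75.8% down the list). Promoter 6, at 62865304, starts a non-coding transcript and was again covered in MEFs, on day 5 and on day 10, with fold enrichments of 4.93, 5.42 and 3.87. The ESC peak (2.84) began 130 bp from it. Within 1 kb, both promoters had a peak in all 4 lists.

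Of the 10 Tet1 regions, 3 were in ESCs and in no other list, and all 3 lay inside the gene, 11.2 kb, 16 kb and 30.6 kb into it. The 1 at 16 kb is promoter 3. The other two ranked low in the ESC list (93.4% and 99.9% down), and both fell away at a -log10 q of 2, which left 7 ESC peaks against 7 in MEFs. With equal list sizes there were 5 in ESCs and 6 in MEFs. One region, 57.7 kb into the gene in an intron, was in MEFs alone, with a fold enrichment of 4.36 (upper 16.5%). Start sites of Ccar1, Slc25a16 and Dna2 in the window lay in regions with a peak in every list, on the start site or not.

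**Figure D3:**
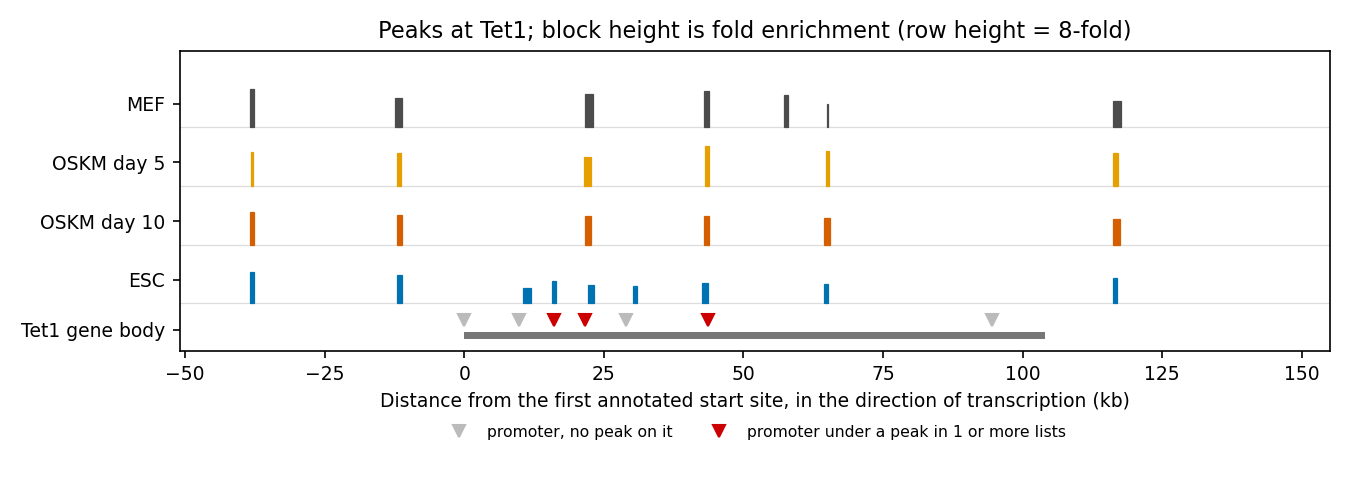
Peaks of the 4 lists along Tet1, by distance from the most upstream annotated start site in kb (horizontal axis, transcription to the right). Blocks are peaks, block height is fold enrichment, the grey bar is the gene body and triangles are promoters. ESC blocks at 11.2, 16 and 30.6 kb have no counterpart in the other rows.

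Tet2 (ENSMUSG00000040943.12, chr3:133463679-133545139, minus strand) encodes a TET protein without a CXXC domain of its own. Its main promoter, promoter 2 with start sites from 133544286 to 133544390, was covered in all lists. The fold enrichment there was 3.11 in MEFs, 2.96 on day 5, 3.15 on day 10 and 3.39 in ESCs, in the upper 32%, 45.6%, 24.2% and 25% of the lists. Promoter 1, a single start site at 133545139, was reached by the MEF peak and missed by the others by 103 bp on day 5, 47 bp on day 10 and 48 bp in ESCs. The remaining 5 promoters, from 133471817 to 133480682, had no peak in any list.

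The lists differed away from the Tet2 promoter. MEFs had the promoter peak and 1 other, 45.3 kb upstream, and the ESC list shared both. Of the 15 regions 9 were in ESCs and not in MEFs, and 4 of these were open on day 5 and on day 10 as well. A further 4 regions were open on day 5 or day 10 without a peak in MEFs or ESCs.

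The highest-ranked Tet2 region lay 20.4 kb into the gene, wholly in an intron, at chr3:133524116-133525436. Its day 5 peak had a fold enrichment of 5.85 and was number 318 of 36219 by score (upper 0.878%). The day 10 peak had 4.58 (number 2251, upper 6.39%) and the ESC peak 4.16 (number 1256, upper 2.59%). MEFs had none. The 300 bases at its centre are those given above with 2 SOX matches and 1 KLF match.

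The other 3 regions shared by day 5, day 10 and ESCs lay 4.56 kb upstream of the gene, 11.5 kb into it and 107 kb from its start, beyond its end. Upstream, the day 5 peak (fold enrichment 3.99, upper 11.5%) was ranked above those of day 10 (3.29, upper 35.2%) and ESCs (3.9, upper 33.2%). At 11.5 kb the ESC peak, 1898 bp wide with the upper 7.93% of its list, was ranked above those of day 5 (59.9% down) and day 10 (48.8% down), whose peaks covered 254 and 302 bp. At 107 kb the ESC peak (4.59, upper 13.4%) was again above day 5 (3.5, 66% down) and day 10 (3.09, 80.9% down). One SOX match lay in the centre of each of the latter 2 regions and none in the upstream region. The centre at 107 kb was repeat sequence over its whole length (100% repeat-masked), and the part of this in the peaks was not tested.

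The 4 Tet2 regions of day 5 or day 10 alone lay in introns 27.7 kb, 34.9 kb, 38.3 kb and 53.6 kb into the gene. All 4 had a day 10 peak and all but that at 27.7 kb a day 5 peak. Fold enrichments ran from 2.77 to 4.39 on day 5 and from 2.45 to 3.8 on day 10, and most ranks were in the lower part of the lists, down to 99.3% at 27.7 kb. The 5 regions of ESCs alone all lay outside the gene, 3 upstream and 2 beyond its end, with fold enrichments from 2.34 to 3.67. No peak in any list lay on a start site of a coding gene other than Tet2 in this window, and the promoter region also held the start of Gm42567, an antisense gene.

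**Figure D4:**
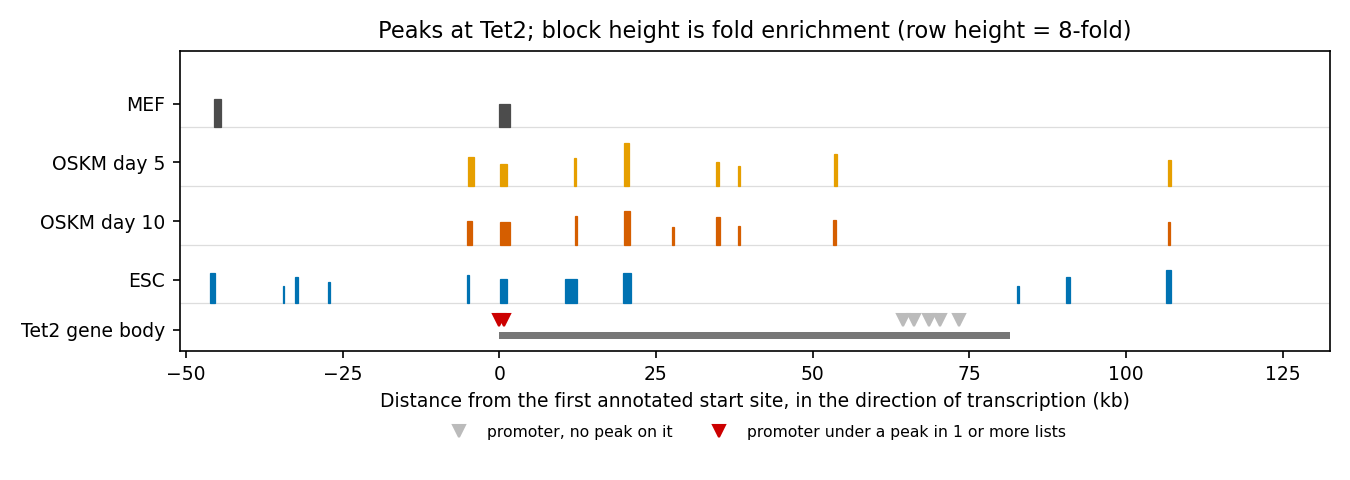
Peaks of the 4 lists along Tet2, drawn as for Tet1 with distance from the most upstream start site in kb on the horizontal axis. The MEF row has 2 blocks, and the 3 other rows share blocks at -4.56, 11.5, 20.4 and 107 kb.

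Tet3 (ENSMUSG00000034832.15, chr6:83362373-83459084, minus strand) encodes the TET protein best known from the oocyte and zygote. Its counts were nearly level, with 9 peaks in MEFs and 8 in each other list. Promoter 3, with start sites from 83441632 to 83441678, was covered in all 4 lists. The fold enrichment was 2.74 in MEFs, 4.37 on day 5, 2.77 on day 10 and 4.38 in ESCs. Peaks were wide in MEFs (3009 bp) and on day 10 (2993 bp) and narrower on day 5 (715 bp) and in ESCs (1125 bp). Promoter 2, at 83456392, was covered in MEFs, on day 5 and on day 10 (fold enrichments 2.94, 3.08 and 3.14), while the ESC peak (2.62, 95.4% down its list) began 92 bp away. Promoter 1 had no peak. Of the 12 regions 7 were in MEFs and ESCs, and 5 of these held start sites of neighbours or of both a neighbour and Tet3: Mthfd2 with Gm43890, Mob1a with Mthfd2, Bola3, Dguok, and B230319C09Rik at Tet3 promoter 3.

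Dnmt1 (ENSMUSG00000004099.16, chr9:20907209-20959888, minus strand), the maintenance methyltransferase, had 11 peaks in MEFs, 7 on day 5, 9 on day 10 and 12 in ESCs. Promoter 2, with start sites from 20952605 to 20952979, lay under a peak in every list, with fold enrichments of 3.83, 4.09, 3.42 and 3.95 and ranks in the upper 9.69%, 18.9%, 12.3% and 18.9%. The 250 bases before it had 54.8% G and C and 7 CpG, fewer than before the Tet2 and Uhrf1 promoters. Promoters 1, 3 and 4 had no peak in any list. The most upstream of them, at 20959888, was 1759 bp from the nearest MEF peak and 6448 to 6652 bp from those of the other lists.

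The Dnmt1 intron region 15.8 kb from that start was open in MEFs, on day 10 and in ESCs, with fold enrichments of 3.13, 2.72 and 3.25, and not on day 5. Of 16 regions, 4 were in ESCs alone, and 2 of these, with the ESC peak in the region of A230050P20Rik, fell away at a -log10 q of 2. The Dnmt1 counts were then 11, 7, 9 and 9. One region 12.6 kb upstream was in MEFs (2.67), on day 5 (2.47) and on day 10 (2.53) and not in ESCs. Start sites of Ppan, Eif3g, S1pr2 and Mrpl4 in the window lay in regions with a peak in all 4 lists. That of A230050P20Rik lay in a region with a peak in MEFs and ESCs.

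Dnmt3a (ENSMUSG00000020661.15, chr12:3806007-3914443, plus strand), a de novo methyltransferase, was the member with the most promoters, 12, and the most regions, 19. Its peaks numbered 14 in MEFs, 5 on day 5, 11 on day 10 and 7 in ESCs, and covered 16.1 kb, 3.08 kb, 7.58 kb and 4.54 kb. The upstream promoters 1 and 2, with start sites from 3806007 to 3807160, had at least 1 start site each under a MEF peak of 2728 bp (chr12:3806191-3808918, fold enrichment 3.06, 40.2% down the list). In the other lists the start sites were bare. A peak began downstream of promoter 2, at a distance of 914 bp on day 5 and 874 bp in ESCs. Day 10 had a peak there as well, and another of 297 bp between the start sites of promoter 1, 94 bp from the nearest and 633 bp from promoter 2. The downstream peaks had fold enrichments of 2.89 on day 5, 2.69 on day 10 and 2.81 in ESCs.

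Promoter 7, with coding transcripts that start at 3891728 and 3891744, is an internal promoter 85.9 kb into Dnmt3a, from which a shorter protein can be made. It was covered in MEFs alone, by a peak of low rank (fold enrichment 2.6, 72.3% down the list), which was not among the 35226 highest-scoring MEF peaks. The nearest ESC peak lay 1537 bp from it, upstream at chr12:3889756-3890191 (fold enrichment 3.82, upper 28.3%), in an intron, and no other list had a peak there. Its central 300 bases held 1 ESRRB match, found in 2.43% of all regions in ESCs and not in MEFs and in 1.04% of all regions. The nearest peak to promoter 7 was 19823 bp away on day 10 and 68054 bp on day 5. The other 9 promoters had no peak in any list.

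Of the 19 Dnmt3a regions, 10 were in MEFs and not in ESCs, 4 of them with a peak on day 10 and 2 with a peak on day 5. The intron region 18.3 kb into the gene (chr12:3822863-3825700) was in MEFs (fold enrichment 2.77, 48.2% down), on day 5 (3.86, upper 29.2%) and on day 10 (4.04, upper 7.9%), so that its rank was highest on day 10. The region 14 kb upstream was in the same 3 lists, with fold enrichments of 4.39, 3.49 and 3.33. Regions at 28.2 kb and 49.5 kb, chiefly in introns, were in MEFs (fold enrichments 2.82 and 3.21) and on day 10 (2.38 and 3.55) but not on day 5. Their day 10 peaks were 94.2% and 61.9% down the list, and that at 28.2 kb fell away at a -log10 q of 2. Another 3 regions were in ESCs alone, 38.6 kb upstream and 47 kb and 84 kb into the gene, and 2 on day 10 alone, at 31.5 kb and 107 kb, both within exons. No neighbouring gene had a start site under a peak in this window.

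**Figure D5:**
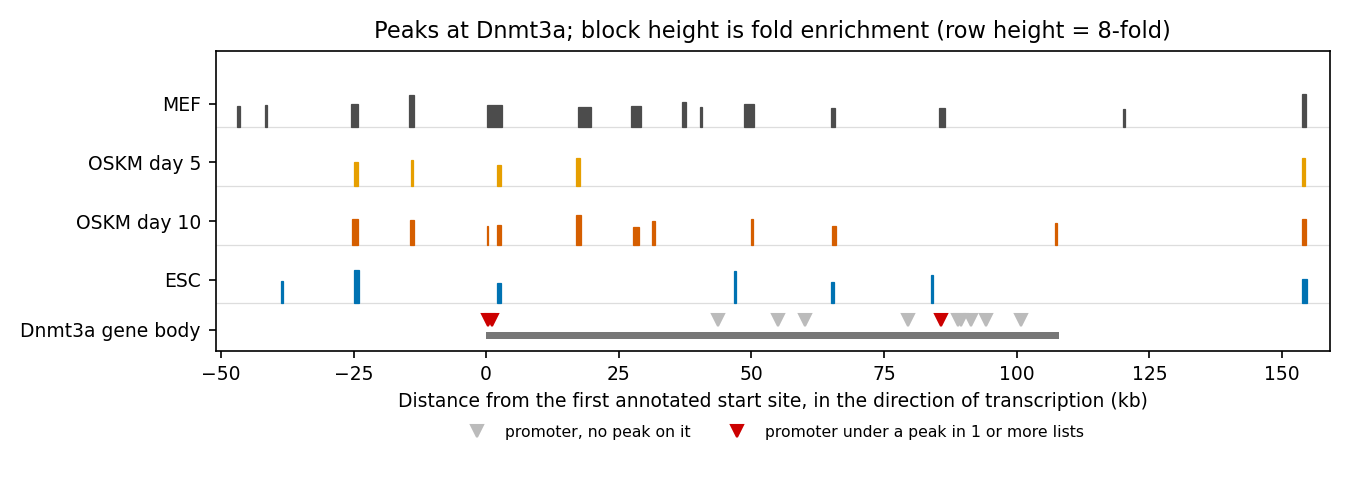
Peaks of the 4 lists along Dnmt3a, drawn as for Tet1 with distance from the most upstream start site in kb on the horizontal axis. The MEF row has 14 blocks, the day 5 row 5, the day 10 row 11 and the ESC row 7, and the MEF block at 85.9 kb covers promoter 7.

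Dnmt3b (ENSMUSG00000027478.15, chr2:153649450-153687730, plus strand), the other de novo methyltransferase, had 4, 3, 3 and 6 peaks. Its coding transcripts all start within promoter 1, from 153649450 to 153649617, which was covered in all 4 lists. The fold enrichment was 3.91 in MEFs, 3.58 on day 5, 4.37 on day 10 and 4.83 in ESCs, and the ESC peak had the highest place within its list (upper 13.4%, against 32%, 50.3% and 19.8%). No list had a second peak inside the gene. Of the 8 regions, 4 were in ESCs and not in MEFs, all outside the gene. One of these, 37.3 kb upstream (chr2:153611206-153613095), was also open on day 5, with a peak of 287 bp in the upper 33.2% of its list, while the ESC peak was 1890 bp wide and 47.9% down its list. Another, 73.4 kb from the start and beyond the gene's end, was in ESCs alone with 4.72 (upper 24.2%). Another 2 were in MEFs and not in ESCs, at 39.8 kb upstream (also on day 10) and 61.5 kb downstream of the start. The start site of Commd7 lay in a region with a peak in all lists.

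Dnmt3l (ENSMUSG00000000730.13, chr10:78041947-78063622, plus strand) encodes the inactive cofactor, known from germ cells and ESCs. None of its 3 promoters lay under a peak in any list. The nearest to promoter 1 was an ESC peak 894 bp away (fold enrichment 3.47, 55.2% down the list) and a day 5 peak 1067 bp away (3.3, 82.8% down), both inside the gene. Their region held a start site of Aire, the neighbouring gene for a thymic transcription regulator. MEFs and day 10 had no peak there, and their nearest were 13406 and 26808 bp from promoter 1. Promoter 2 was 6046 bp from a day 5 peak and 6068 bp from an ESC peak. The window held 5, 3, 2 and 4 peaks, and the start sites of Pfkl and Icosl in it lay in regions with a peak in every list. A region 55 kb from the start, beyond the gene, was in ESCs alone (4.45, upper 24.2%), and its centre held an octamer match. Such a match was found in 4.5% of region centres in ESCs and not in MEFs and in 3.18% of the centres of all regions.

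Uhrf1 (ENSMUSG00000001228.14, chr17:56303321-56323486, plus strand) encodes the ubiquitin ligase that recognises hemimethylated DNA. It had 9, 6, 6 and 9 peaks, and 1 of them in each list lay on the gene, over promoters 1 and 2. The fold enrichment of this peak was 3.79 in MEFs, 2.96 on day 5, 3.35 on day 10 and 2.89 in ESCs, and its place within the list was the upper 13.6%, 69.1%, 21.9% and 39.2%. Promoters 3 and 4, of non-coding transcripts, had none. A region 36.9 kb upstream (chr17:56265939-56266832) was among the upper 1.67% of the MEF list with a fold enrichment of 4.96. It was still listed on day 5 (2.66, 95.8% down) and on day 10 (2.82, 82.8% down), and it was not listed in ESCs. Its centre held 1 AP-1 and 1 octamer match. Of all region centres in MEFs and not in ESCs, 31.2% held an AP-1 and 1.85% an octamer match. Of the centres of all regions, 15.6% and 3.18% did. The start sites of Fem1a, Ticam1, Plin3 and Kdm4b in the window lay in regions with a peak in all lists. With a -log10 q of at least 2 the counts were 9, 5, 6 and 7.

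The 14 covered promoters of the 8 genes were set side by side. The 6 covered in every list had a median of 69.8% G and C and 26.5 CpG in 300 bases, the 8 covered in some lists 54.4% and 12.5, and the 29 covered in none 51.3% and 3. Over all protein-coding genes the medians were 61.3% and 21 for the 10806 promoters covered in every list and 47% and 3 for the 35080 covered in none. A KLF match was held by 66.7% of the 6, 50% of the 8 and 17.2% of the 29, beside 48.7% of all promoters covered in every list and 12.5% of those in none.

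The wider DNA methylation list held 35 genes, of which 34 had a peak on a start site in MEFs, 30 on day 5, 32 on day 10 and 33 in ESCs, beside 60%, 52.1%, 56% and 55.8% of all protein-coding genes. Their windows held a median of 5, 4, 4 and 5 peaks, beside 5, 3, 3 and 4 over all protein-coding genes. The pattern was the same in all lists at 29 genes, among them Tdg, the glycosylase that removes oxidised methylcytosine, Pcna and Hells, partners in maintenance, and Trim28, a keeper of imprints. Dppa3, which holds UHRF1 out of the nucleus in the oocyte, had no start-site peak in any list, and its window held 3, 4, 4 and 8 peaks. The pattern differed at 6 genes. Ogt, the O-GlcNAc transferase that binds TET proteins, was covered in MEFs and ESCs alone. Cxxc4 was uncovered on day 10, and Cxxc5, Smug1 and Zbtb33 were uncovered on day 5. Zbtb4 was uncovered in ESCs.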

How the data were processed

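ATAC-seq libraries were analysed from the peak lists of the authors, 1 list for each group of 2 libraries. Per the labels' processing notes, the authors mapped reads to mm10 with Bowtie2 2.2.0. The labels and the methods give different mapping quality limits. The peak caller, its settings and any shift of read ends are not given in the sources used here. The deposited score is the −log10 q-value times 10, rounded down to a whole number, the deposited fold enrichment is a ratio over background, and the deposited −log10 q-value is above 1 throughout (lowest 1.01). Depth per library is unknown, so no floor was computed, and no column belonged to other series (0 columns). Groups came from sample titles.

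Intervals were intersected in Python 3.11.15 with pandas 2.3.3 and numpy 2.4.6, and exact intervals computed with scipy 1.17.1. A peak counted with at least 1 bp of overlap. Start sites, exons and gene bodies were those of GENCODE mouse release 21, and sequences those of GRCm38, within whose chromosome lengths all peaks lay. The interval code was tested on simulated data. No test was made, since each group had 1 list. The genes and gene lists were chosen with earlier results of these data known. All 8 genes were named, with every promoter covered in at least 1 list, neighbours whose start site lay in a merged region, for each gene the 1 gene of similar length with the nearest pattern, and genes of the wider list that differed between lists.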

Additional observations from a re-analysis of the deposited data

How the results depend on the processing

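The 78 alternative values for the counts over all 8 genes were within 1.5 times of the reported value in 56 cases, moved further in 21 and changed sign in 1. The sign change was that of the summed difference in peaks between ESCs and MEFs, which was 5 as reported and -5 among peaks with a -log10 q of at least 2. That difference was 1 with no flank, 3 with a flank of 10 kb and 2 with 100 kb. With no flank the lists had 21, 18, 26 and 22 peaks (MEF, day 5, day 10, ESC), and with 10 kb 26, 22, 30 and 29. With 100 kb they had 92, 58, 73 and 94, and smaller or larger windows hold fewer or more peaks by construction. Regions in MEFs and ESCs, in MEFs and not in ESCs, and in ESCs and not in MEFs numbered 12, 9 and 10 with no flank and 16, 10 and 13 with 10 kb. With 100 kb these regions numbered 52, 40 and 42, in the same order. With each list limited to its 35226 highest-scoring peaks there were 14 regions in MEFs and not in ESCs and 18 in ESCs and not in MEFs, where the shorter lists account for fewer peaks. Among peaks with a -log10 q of at least 2 the order was reversed. There were then 24 regions in MEFs and not in ESCs and 19 in ESCs and not in MEFs. Genes with a start-site peak numbered 7, 6, 6 and 6 as reported, and 7, 7, 7 and 8 when a peak within 1 kb counted. The other alternatives run left these counts unchanged. With 8 genes, such counts could not rise by over 1.5 times, so that limit says little about them. Among single genes, 6 differences between ESCs and MEFs changed sign. For Dnmt3l the difference was 1 with no flank, 1 with 10 kb and 1 with equal list sizes, for Dnmt1 it was -1 with 10 kb and -2 at a -log10 q of at least 2, and for Tet1 it was -1 with equal list sizes. The cause was not tested. Those of Tet2 (more in ESCs) and Dnmt3a (fewer in ESCs) changed sign under none of these alternatives but moved by over 1.5 times. Tet2 went from 9 to 2 with no flank and 5 with 10 kb, and Dnmt3a from -7 to -4 with either and to -2 with equal list sizes.

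No paired analysis was possible because the deposited lists join the replicates, and for the same reason leaving out a replicate could not be run. Depth is unknown and limits every statement that a peak was missing from a list. Peak borders decide several of the start-site calls, since peaks missed start sites of Tet1, Tet2 and Tet3 by 47 to 467 bp.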

Other observations

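For each gene, the protein-coding gene of similar length (within 1.5 times) with the most similar peak kb over the 4 lists was found by the Euclidean distance of log2(peak bp + 1), from 2201 to 4893 candidates. The 4 lists are the only points behind each distance. For Tet2 it was Trip12, with 3.39 kb in MEFs, 5.8 kb on day 5, 4.54 kb on day 10 and 9.04 kb in ESCs, beside 2.9, 4.99, 5.71 and 8.37 kb at Tet2, a distance of 0.47. For Dnmt3a it was Itgb5, with 13.6, 3.38, 6.48 and 3.86 kb beside 16.1, 3.08, 7.58 and 4.54 kb, a distance of 0.42. These were the largest distances among the 8 genes. The others were Tbc1d14 for Tet1 (0.23), Cdk19 for Tet3 (0.12), Ggnbp1 for Dnmt1 (0.17), Net1 for Dnmt3b (0.14), Decr1 for Dnmt3l (0.18) and Actr1a for Uhrf1 (0.19).

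Several of the highest-ranked peaks near these genes lay in regions that held start sites of neighbours. The peak in the region of the Mob1a and Mthfd2 start sites, in the Tet3 window, was number 64 in the MEF list, 1808 on day 5, 211 on day 10 and 355 in ESCs. The peak at Fem1a, in the Uhrf1 window, was number 76 on day 10, 849 in MEFs, 3124 on day 5 and 15225 in ESCs. The peak at Pfkl, in the Dnmt3l window, was number 176 on day 5, 286 on day 10, 1295 in MEFs and 2791 in ESCs.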
